A study of Mus musculus with 17 samples.

Results

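Msx1, Msx2, Alx1, Irx1, Irx2, Irx3, Irx5, Mab21l1 and Mab21l2 are developmental patterning genes, and their RNA was followed in embryonic kidneys whose stroma or nephron progenitors carried stabilised beta-catenin. The 9 genes are 9 of the 24432 gene IDs in the expression table, and every symbol had 1 row. They were chosen from the readout itself, for strong rises of FPKM (fragments per kilobase of transcript, scaled to the size of the library) that were shared by both mutants or belonged to 1 lineage, so the sizes of their changes are given as descriptions with no test. Family members outside the 9, genes beside them on the chromosome and gene lists were tested.

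The material was RNA from whole kidneys dissected at E12.5, from mice labelled as a mixed strain. The 5 Foxd1-Cre libraries carried Ctnnb1-delta3 c/+, 1 copy of beta-catenin that loses its exon 3 where Cre acts, with Cre driven by Foxd1 in the stroma. The 3 Six2-Cre libraries carried the same allele with Cre driven by Six2 in nephron progenitors, and 9 libraries were wild type. Foxd1-Cre was compared with wild types 1 to 6 and Six2-Cre with wild types 7 to 9, so the mutants shared no controls. Each Cre line targets 1 lineage, while RNA came from the whole organ: fewer cells of a type and less RNA per cell cannot be told apart. The labels do not say how many embryos went into a library or whether libraries came from separate embryos, so p-values measure only the spread between these libraries.

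The Foxd1-Cre libraries and wild types 1 to 6 were deeper: 1 read on a transcript of 1 kilobase was worth 0.0272 to 0.0349 FPKM there, against 0.1697 to 0.1879 FPKM in the Six2-Cre libraries and wild types 7 to 9. This difference in depth and the Cre line cannot be told apart. Some genes also differed in level between the wild types of these library sets. Nbea and Lrba, described below, averaged 5.61 and 4.79 FPKM in wild types 1 to 6 and 11.5 and 11.6 FPKM in wild types 7 to 9. Where levels of the mutants are set side by side below, differences between the sets are not removed. All 11 kidney identity markers were measured in both comparisons. Foxd1 averaged 19.9 ± 3.32 FPKM in Foxd1-Cre kidneys and 102 ± 7.97 FPKM in wild types 1 to 6 (SD, n = 5 and 6), and Six2 averaged 18 ± 0.266 FPKM in Six2-Cre kidneys and 80.8 ± 8.95 FPKM in wild types 7 to 9 (SD, n = 3 each). Each fell in the mutant whose Cre is named after it (limma, adjusted p = 1.9e-08 and 1.5e-04).

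Msx1 and Msx2 are homeodomain transcription factors that respond to BMP and Wnt signals in limb, tooth and skull mesenchyme. Alx1 is a paired-type homeodomain factor of craniofacial mesenchyme, and the Irx genes encode TALE homeodomain factors that lie in clusters and pattern many tissues along an axis; in the kidney Irx genes are known from the middle segments of the forming nephron. Mab21l1 and Mab21l2 encode related proteins named after the worm gene mab-21 and are known for their parts in eye and body wall development. In canonical Wnt signalling, beta-catenin that escapes degradation enters the nucleus and activates target genes with TCF/LEF factors, and losing exon 3 removes the sites that mark it for degradation.

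Windows of 250 bases before to 50 bases after the RefSeq gene start were found in the table of promoters (GRCm38.p6) for 5 of the 9 genes, Msx1, Msx2, Irx2, Irx3 and Mab21l2, while Alx1, Irx1, Irx5 and Mab21l1 had no entry. The windows of Msx2, Irx3 and Mab21l2 lie wholly inside exons of the GENCODE annotation, with all 300 bases transcribed there, and are not shown. The 250 bases upstream of Msx1 and of Irx2 are shown, a gene that reached the highest level of the 9 in Six2-Cre kidneys and one that stayed at or under 0.267 FPKM in every library. The Msx1 stretch is chr5:37824586-37824835 on the minus strand and the Irx2 stretch is chr13:72628570-72628819 on the plus strand. Both are written 5′ to 3′ along the gene, with CCAAT boxes on either strand (CCAAT or ATTGG) in capitals.
Msx1: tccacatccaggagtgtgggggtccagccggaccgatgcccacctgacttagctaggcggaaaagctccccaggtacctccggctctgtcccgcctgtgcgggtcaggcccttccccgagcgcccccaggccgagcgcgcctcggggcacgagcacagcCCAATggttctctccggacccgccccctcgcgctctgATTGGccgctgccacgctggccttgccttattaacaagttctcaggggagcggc
Irx2: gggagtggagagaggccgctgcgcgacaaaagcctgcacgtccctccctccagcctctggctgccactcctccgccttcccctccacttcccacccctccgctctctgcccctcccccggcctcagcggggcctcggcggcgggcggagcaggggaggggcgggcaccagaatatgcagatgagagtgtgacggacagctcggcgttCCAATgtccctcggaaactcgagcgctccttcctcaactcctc
The stretches have a similar base composition, 68% G or C for Msx1 and 68.4% for Irx2, with 2 CCAAT boxes for Msx1 and 1 for Irx2.

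The whole windows were searched on both strands for CTTTGA (the TCF/LEF core), TAATTG (an Msx-type homeodomain motif) and GGCGCC (a BMP Smad GC element). None of the 5 windows held any of these motifs, which occurred in 16%, 8% and 11.9% of the 32851 windows in the table. CCAAT, added after the windows had been read, occurred in 4 of the 5 (all but Irx3), against 37.4% of all windows; TAATTG followed by G also contains its reverse, ATTGG. These counts say only which letters stand in the windows.

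In wild-type kidneys 1 to 6 the genes already differed in level. Alx1 was highest at 3.29 ± 0.555 FPKM, followed by Irx3 at 2.92 ± 0.572, Msx1 at 1.16 ± 0.149 and Msx2 at 0.889 ± 0.15 FPKM (SD, n = 6). Irx1 at 0.26 ± 0.0593, Irx5 at 0.245 ± 0.077, Mab21l1 at 0.135 ± 0.0436, Irx2 at 0.0617 ± 0.0179 and Mab21l2 at 0.0243 ± 0.0134 FPKM came below them. The ranges of Alx1 and Irx3 overlapped, as did those of Msx1 and Msx2, of Irx1 and Irx5, of Irx5 and Mab21l1, and of Irx2 and Mab21l2. Mab21l1 and Irx2 nearly touched, with a lowest Mab21l1 value of 0.0906 FPKM and a highest Irx2 value of 0.0905 FPKM. In wild types 7 to 9 Alx1 at 4.45 ± 0.267 and Irx3 at 3.04 ± 0.574 FPKM also led (SD, n = 3). Msx2 at 0.99 ± 0.623 and Msx1 at 0.522 ± 0.151 FPKM followed, with ranges that overlapped. Irx1, Mab21l2, Irx5, Mab21l1 and Irx2 averaged 0.272, 0.209, 0.173, 0.119 and 0.0682 FPKM there, on a few reads each.

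The order was different in each mutant. In Foxd1-Cre kidneys Alx1 at 25 ± 2.82 FPKM and Mab21l1 at 13.5 ± 2.54 FPKM led, followed by Msx1 at 6.43 ± 0.424, Irx3 at 5.29 ± 0.547, Irx5 at 4.03 ± 0.682 and Msx2 at 2.74 ± 0.356 FPKM (SD, n = 5), where each of the last 3 overlapped the one before it. In Six2-Cre kidneys Msx1 at 21.8 ± 2.61 FPKM led, followed by Mab21l1 at 6.96 ± 1.46, Irx5 at 6.89 ± 1.22 and Msx2 at 6.61 ± 0.752 FPKM, whose ranges overlapped (SD, n = 3). Irx3 at 4.98 ± 0.135 and Alx1 at 2.86 ± 0.237 FPKM stood below these without overlap. Irx1, Irx2 and Mab21l2 stayed under 1 FPKM in all 17 libraries.

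**Figure D1:**
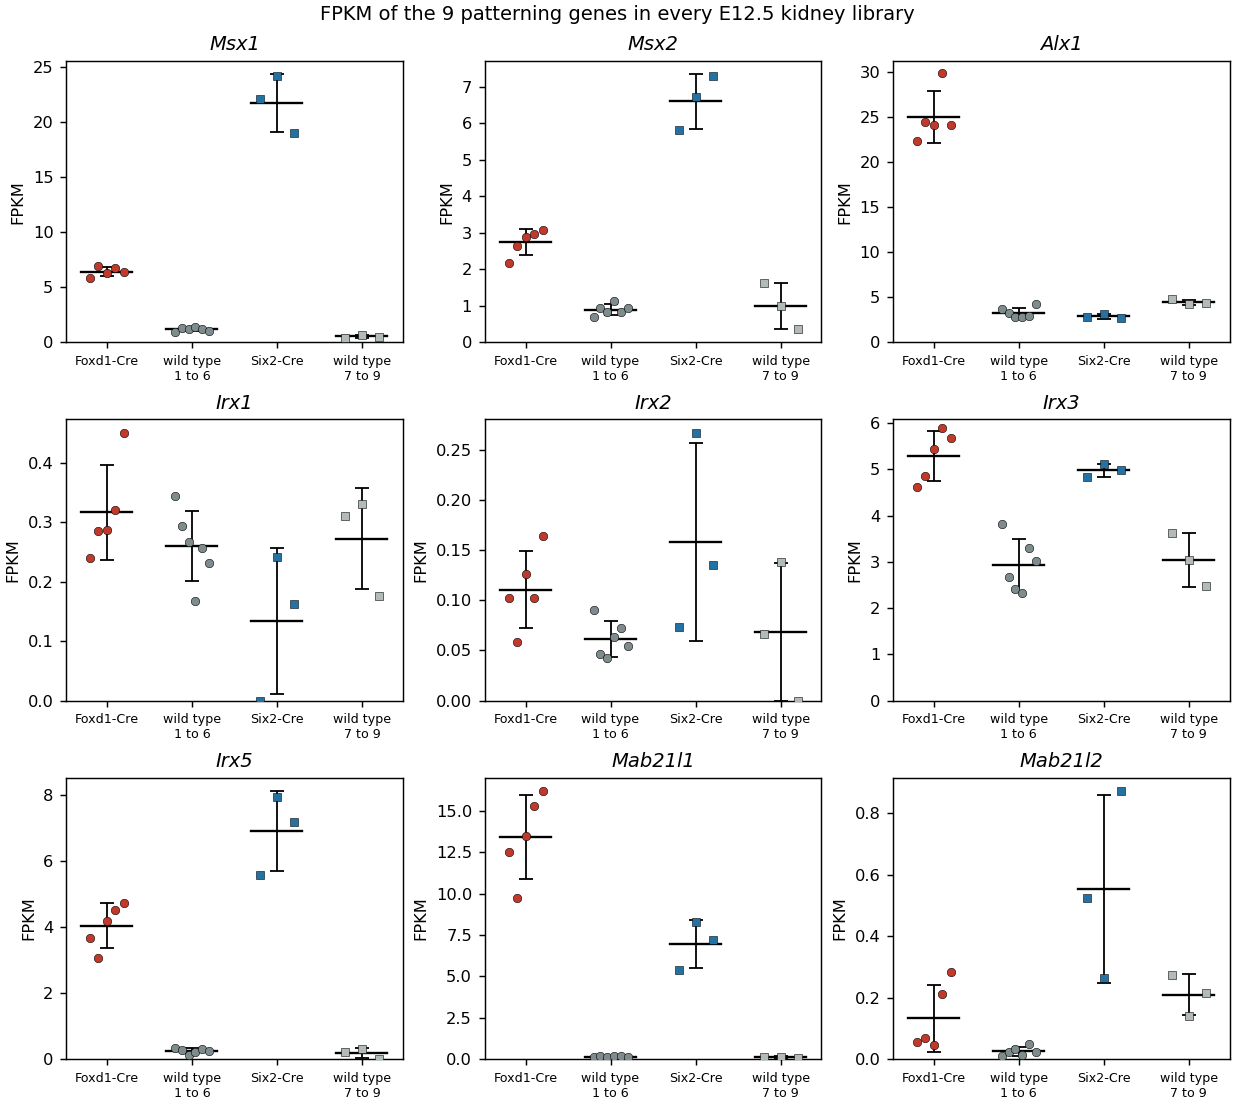
FPKM (linear y axes, each with its own scale) of the 9 patterning genes in every library; points are libraries, lines are group means and bars are ± SD (5 Foxd1-Cre, 6 wild types 1 to 6, 3 Six2-Cre and 3 wild types 7 to 9). Msx1, Msx2, Irx3, Irx5 and Mab21l1 stand above their wild types in both mutants, Alx1 reaches 22.4 to 29.9 FPKM in Foxd1-Cre kidneys only, and Irx1, Irx2 and Mab21l2 stay under 1 FPKM.

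Of the 9 genes, 6 (Msx1, Msx2, Alx1, Irx3, Irx5 and Mab21l1) had at least 1 FPKM in at least 3 libraries and entered the fit across all genes, and Irx1, Irx2 and Mab21l2 did not. Msx2, Irx5 and Mab21l1 met this filter only because of mutant libraries. Among the genes described further on, so did Irx6, Mab21l3, Lrriq1, Crnde, Grem1, Hand2, Dbh, Sstr1, Lin7a, Kcng1, Mdga2 and Wif1. The same holds for the tissue markers Tfap2c, Dlx5, Sp7, Snorc, Prph, Gata4 and Upk3b. In Foxd1-Cre kidneys all 6 passed an adjusted p of 0.05 upward, where 8.45% of all tested genes did, and 0 passed downward, where 4.82% did. In Six2-Cre kidneys 5 passed upward, where 7.93% of all tested genes did, and Alx1 passed downward, where 5.84% did. All 6 had every Foxd1-Cre library above every wild type, where 6.89% of all tested genes did. The same 5 genes that passed upward had every Six2-Cre library above every wild type, where 18% did, and Alx1 had every one below, where 17.7% did. Nothing is read from these counts, since the genes were chosen from the same contrasts. With 1 Six2-Cre library or 1 of wild types 7 to 9 left out, 4 or 5 of the 6 passed in Six2-Cre kidneys: Alx1 no longer passed without Six2-Cre library 1 or 3 or without wild type 7, 8 or 9, and Irx3 no longer passed without Six2-Cre library 1, 2 or 3 or without wild type 8 or 9. With all 9 wild types as controls Alx1 did not pass either, with a log2 change of -0.26.

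Msx1 (chromosome 5, 37820485 to 37824583, minus strand, GRCm38) had 5.8, 6.89, 6.31, 6.74 and 6.38 FPKM in the Foxd1-Cre libraries, against a lowest of 0.935, a median of 1.17 and a highest of 1.34 FPKM in wild types 1 to 6. It had 22.1, 24.2 and 19 FPKM in the Six2-Cre libraries, against 0.414, 0.695 and 0.457 FPKM in wild types 7 to 9. Both mutants stood clear of their wild types, and every Six2-Cre library was above every Foxd1-Cre library, a comparison across library sets. The mean was 5.56 times the wild-type mean in Foxd1-Cre kidneys and 41.7 times in Six2-Cre kidneys. The latter ratio is imprecise, since Msx1 had about 4.68, 7.59 and 4.86 reads in wild types 7 to 9. On the scale of log2(FPKM + 1), used for every log2 change here and one that understates the change of genes with low values, Msx1 was higher by 1.79 ± 0.06 in Foxd1-Cre and by 3.90 ± 0.12 in Six2-Cre kidneys (limma's SE).

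Msx2 (chromosome 13, 53466884 to 53473074, minus strand) had 2.18, 2.63, 2.88, 2.96 and 3.07 FPKM in the Foxd1-Cre libraries, against a lowest of 0.681, a median of 0.881 and a highest of 1.13 FPKM in wild types 1 to 6. It had 5.81, 6.71 and 7.3 FPKM in the Six2-Cre libraries, against 1.62, 0.983 and 0.37 FPKM in wild types 7 to 9. Groups did not overlap in either comparison, and wild types 7 to 9 were spread widely. The log2 change was 0.99 ± 0.08 in Foxd1-Cre and 1.98 ± 0.24 in Six2-Cre kidneys. The change of Msx1 in Foxd1-Cre kidneys minus that in Six2-Cre kidneys was -2.12 ± 0.14, and that of Msx2 was -0.99 ± 0.25.

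The ratio of Msx1 to Msx2 FPKM ran from 2.08 to 2.67 in Foxd1-Cre libraries, against 1.12 to 1.41 in wild types 1 to 6, and from 2.6 to 3.81 in Six2-Cre libraries, against 0.256 to 1.23 in wild types 7 to 9. Neither pair of ranges overlapped, though wild types 7 to 9 held only about 4.68 to 7.59 reads of Msx1 and 5 to 23.1 of Msx2. Msx3, the third gene of the family and one known from the dorsal neural tube, was at or below 0.073 FPKM in every library, about 2 reads or fewer. Of the tested neighbours, Cytl1 beside Msx1 changed by -0.33 ± 0.21 in Foxd1-Cre and 0.39 ± 0.20 in Six2-Cre kidneys on the log2 scale. Sptlc1 beside Msx2 changed by 0.01 ± 0.05 and -0.07 ± 0.05. Neither gene passed (limma, adjusted p = 0.39 and 0.258 for Cytl1, 0.909 and 0.46 for Sptlc1).

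Alx1 (chromosome 10, 102998707 to 103030215, minus strand) had 22.4, 24.5, 24.2, 29.9 and 24.2 FPKM in the Foxd1-Cre libraries, against a lowest of 2.81, a median of 3.12 and a highest of 4.19 FPKM in wild types 1 to 6. It had 2.75, 3.13 and 2.69 FPKM in the Six2-Cre libraries, against 4.75, 4.23 and 4.37 FPKM in wild types 7 to 9. Every Foxd1-Cre library was above its wild types and every Six2-Cre library was below its own. The log2 change was 2.60 ± 0.09 in Foxd1-Cre and -0.50 ± 0.09 in Six2-Cre kidneys. In FPKM the Foxd1-Cre mean was 7.6 times the wild-type mean. A long non-coding RNA gene overlaps Alx1 on the same strand, and 3.94% of the 31-base stretches of Alx1 occur in other genes.

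The related gene Alx4, another paired-type homeodomain factor of limb and skull mesenchyme that overlaps Ext2 on the opposite strand, was not among the 9 and was tested. It had 3.37, 3.04, 3.88, 5.65 and 4.07 FPKM in the Foxd1-Cre libraries, against a lowest of 1.03, a median of 1.52 and a highest of 1.87 FPKM in wild types 1 to 6. It had 5.6, 4.95 and 4.65 FPKM in the Six2-Cre libraries, against 2.24, 1.36 and 2 FPKM in wild types 7 to 9. Neither comparison had an overlap. Alx4 rose by 1.02 ± 0.13 on the log2 scale in Foxd1-Cre kidneys (limma, adjusted p = 3.1e-04) and by 1.09 ± 0.15 in Six2-Cre kidneys (adjusted p = 0.00664). The difference of these changes was -0.07 ± 0.20 and did not pass (limma, adjusted p = 0.876).

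The ratio of Alx1 to Alx4 FPKM ran from 5.29 to 8.05 in Foxd1-Cre libraries, against 1.5 to 3.14 in wild types 1 to 6, and from 0.492 to 0.633 in Six2-Cre libraries, against 2.12 to 3.1 in wild types 7 to 9. The ratio was above that of its wild types in every Foxd1-Cre library and below it in every Six2-Cre library.

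Lrriq1, whose gene body lies 15816 bases upstream of Alx1 on the same strand (chromosome 10, 103046031 to 103236322), was tested beside it. It had 2.75, 3.02, 2.64, 3.05 and 3.19 FPKM in Foxd1-Cre libraries, against a lowest of 0.353, a median of 0.491 and a highest of 0.674 FPKM in wild types 1 to 6, with no overlap. It rose by 1.38 ± 0.07 on the log2 scale there (limma, adjusted p = 9.1e-08). In Six2-Cre libraries it had 0.112, 0.195 and 0.1 FPKM, against 0.241, 0.309 and 0.709 FPKM in wild types 7 to 9, a log2 change of -0.31 ± 0.17 that did not pass (limma, adjusted p = 0.293). The difference of the changes was 1.69 ± 0.19 (limma, adjusted p = 6.0e-04), where 11% of all genes tested for a difference passed. Lrriq1 met the filter on low values only through Foxd1-Cre libraries, so the filter itself favoured this difference.

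The Irx genes lie in clusters. Irx3, Irx5 and Irx6 are on chromosome 8, with 556 kb between Irx3 and Irx5 and 298 kb between Irx5 and Irx6, and Irx1, Irx2 and Irx4 are on chromosome 13, with 665 kb between Irx1 and Irx2 and 626 kb between Irx2 and Irx4. The Irx genes that passed the filter on low values were all on chromosome 8.

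Irx3 (chromosome 8, 91798525 to 91802067, minus strand) had 4.61, 4.85, 5.43, 5.9 and 5.67 FPKM in the Foxd1-Cre libraries, against a lowest of 2.32, a median of 2.85 and a highest of 3.81 FPKM in wild types 1 to 6. It had 4.84, 5.11 and 4.98 FPKM in the Six2-Cre libraries, against 3.62, 3.03 and 2.47 FPKM in wild types 7 to 9. Neither mutant overlapped its wild types, and the mutants had like levels across library sets. The log2 change was 0.69 ± 0.10 in Foxd1-Cre and 0.57 ± 0.12 in Six2-Cre kidneys. Irx3os overlaps Irx3 on the opposite strand, and counting by strand is not stated.

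Irx5 (chromosome 8, 92357625 to 92376286, plus strand) had 3.66, 3.05, 4.18, 4.52 and 4.73 FPKM in the Foxd1-Cre libraries, against a lowest of 0.118, a median of 0.257 and a highest of 0.328 FPKM in wild types 1 to 6. It had 5.56, 7.94 and 7.17 FPKM in the Six2-Cre libraries, against 0.216, 0.302 and 0 FPKM in wild types 7 to 9, which correspond to about 3.22, 4.35 and 0 reads. All mutant libraries stood far above a near-empty background. The log2 change was 2.01 ± 0.09 in Foxd1-Cre and 2.75 ± 0.17 in Six2-Cre kidneys, and the level was 16.5 times the wild-type mean in Foxd1-Cre kidneys.

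Irx6, the outermost gene of the chromosome 8 cluster, was not among the 9. It had 1.73, 1.47, 1.94, 2.3 and 2.19 FPKM in Foxd1-Cre libraries, against a lowest of 0.00816, a median of 0.0185 and a highest of 0.0419 FPKM in wild types 1 to 6. In Six2-Cre libraries it had 0.568, 0.553 and 0.797 FPKM, against 0, 0.192 and 0.201 FPKM in wild types 7 to 9. Both mutants were above their wild types. Irx6 rose by 1.51 ± 0.07 on the log2 scale in Foxd1-Cre kidneys (limma, adjusted p = 5.7e-08), and its change of 0.54 ± 0.15 in Six2-Cre kidneys did not pass (adjusted p = 0.0671), although it passed with all genes kept (adjusted p = 0.0321). The difference of the changes was 0.97 ± 0.17 (limma, adjusted p = 0.00511); it was 2.22 with a pseudocount of 0.1, where it did not pass (adjusted p = 0.074). Only Foxd1-Cre libraries brought Irx6 past the filter on low values, so the filter itself favoured this difference. An antisense gene overlaps Irx6.

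The Irx5 to Irx6 ratio was 1.96 to 2.16 in Foxd1-Cre libraries and 9 to 14.4 in Six2-Cre libraries. In wild types the counts of Irx6 were too small for a stable ratio, with 0.932 to 4.72 reads in wild types 1 to 6.

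Irx1 (chromosome 13, 71957921 to 71963723, minus strand) had 0.239 to 0.45 FPKM in Foxd1-Cre libraries, against 0.168 to 0.344 FPKM in wild types 1 to 6, and 0, 0.241 and 0.162 FPKM in Six2-Cre libraries, against 0.311, 0.33 and 0.175 FPKM in wild types 7 to 9. Irx2 (chromosome 13, 72628820 to 72634198, plus strand) had 0.0588 to 0.164 FPKM in Foxd1-Cre libraries, against 0.0424 to 0.0905 FPKM in wild types 1 to 6, and 0.0737, 0.267 and 0.135 FPKM in Six2-Cre libraries, against 0.0665, 0.138 and 0 FPKM in wild types 7 to 9. Both genes overlapped their wild types in both comparisons, at about 0 to 30.9 reads a library, and neither was tested. Irx4, the third gene of that cluster, had 0.0689, 0.0625 and 0.0631 FPKM in Six2-Cre libraries, about 1 read each, against 0.43, 0.323 and 0.136 FPKM in wild types 7 to 9, which is about 6.5, 4.72 and 1.94 reads. In Foxd1-Cre libraries it had 0.206 to 0.274 FPKM, against 0.207 to 0.358 FPKM in wild types 1 to 6.

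The sum of the 6 Irx genes was 9.96 to 13.4 FPKM in Foxd1-Cre libraries, against 2.97 to 4.95 FPKM in wild types 1 to 6, and 11.1 to 14.2 FPKM in Six2-Cre libraries, against 2.99 to 4.65 FPKM in wild types 7 to 9. Irx3 made up a median of 44% of the sum in Foxd1-Cre libraries, against 77.5% in wild types 1 to 6, and 37.4% in Six2-Cre libraries, against 78% in wild types 7 to 9. Irx5 made up 34.3% in Foxd1-Cre libraries, against 6.64% in wild types 1 to 6, and 53.9% in Six2-Cre libraries, against 4.66% in wild types 7 to 9. Irx6 made up 16.3% in Foxd1-Cre libraries, against 0.504% in wild types 1 to 6, and 5.11% in Six2-Cre libraries, against 4.45% in wild types 7 to 9.

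**Figure D2:**
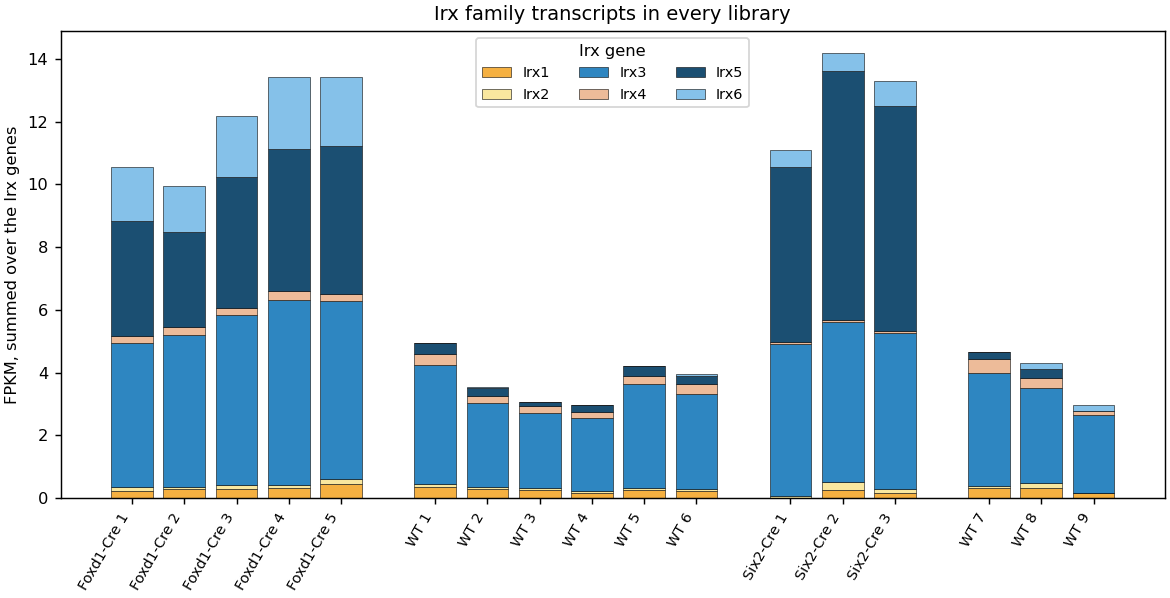
FPKM of the 6 Irx genes stacked for each library (linear y axis from 0; Foxd1-Cre 1 to 5, wild types 1 to 6, Six2-Cre 1 to 3, wild types 7 to 9). The sum is 9.96 to 13.4 FPKM in Foxd1-Cre and 11.1 to 14.2 FPKM in Six2-Cre libraries, against 2.97 to 4.95 FPKM in wild types 1 to 6 and 2.99 to 4.65 FPKM in wild types 7 to 9, and Irx5 makes up a median of 34.3% of it in Foxd1-Cre and 53.9% in Six2-Cre libraries.

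Crnde, a long non-coding RNA gene that starts 1505 bases from Irx5 and runs away from it on the opposite strand, had 0.704 to 1.43 FPKM in Foxd1-Cre libraries, against 0.192 to 0.496 FPKM in wild types 1 to 6. It rose by 0.65 ± 0.10 on the log2 scale there (limma, adjusted p = 7.9e-04). In Six2-Cre libraries it had 0.623, 1.51 and 1.59 FPKM, against 0.556, 0 and 0.336 FPKM in wild types 7 to 9, a change of 0.78 ± 0.26 that did not pass (limma, adjusted p = 0.0998). The difference of the changes was -0.13 ± 0.27 (adjusted p = 0.831).

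Mab21l1 (chromosome 3, 55782510 to 55785001, plus strand) had 12.54, 9.73, 13.5, 15.3 and 16.2 FPKM in the Foxd1-Cre libraries, against a lowest of 0.0906, a median of 0.132 and a highest of 0.195 FPKM in wild types 1 to 6. It had 5.4, 8.29 and 7.2 FPKM in the Six2-Cre libraries, against 0.143, 0.142 and 0.073 FPKM in wild types 7 to 9, about 2.08, 1.99 and 1 reads. All mutant libraries stood clear of the wild types, and every Foxd1-Cre library was above every Six2-Cre library, a comparison across library sets. The log2 change was 3.65 ± 0.10 in Foxd1-Cre and 2.81 ± 0.16 in Six2-Cre kidneys, a difference of 0.84 ± 0.19.

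Mab21l1 lies inside Nbea on the opposite strand, and 38.6% of its 31-base stretches also occur in Nbea transcripts when both strands are read, so reads of the genes cannot be told apart fully without strand. Nbea, which encodes neurobeachin, had 6.31, 7.72, 7.37, 7.88 and 7.1 FPKM in Foxd1-Cre libraries, against a lowest of 4.45, a median of 5.68 and a highest of 6.34 FPKM in wild types 1 to 6. It had 15.5, 16.1 and 16.7 FPKM in Six2-Cre libraries, against 10.8, 11.6 and 12 FPKM in wild types 7 to 9. It rose by 0.33 ± 0.08 on the log2 scale in Foxd1-Cre kidneys (limma, adjusted p = 0.0135) and by 0.46 ± 0.06 in Six2-Cre kidneys (adjusted p = 0.00731). The rise in Foxd1-Cre kidneys did not pass with all 9 wild types as controls, where the change was 0.02 (adjusted p = 0.952). The Mab21l1 to Nbea ratio was 1.26 to 2.28 in Foxd1-Cre libraries, against 0.0162 to 0.0437 in wild types 1 to 6.

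Mab21l2 (chromosome 3, 86545581 to 86548629, minus strand) had 0.0551, 0.0671, 0.0447, 0.212 and 0.283 FPKM in Foxd1-Cre libraries, against a lowest of 0.0111, a median of 0.022 and a highest of 0.0472 FPKM in wild types 1 to 6. It had 0.524, 0.263 and 0.873 FPKM in Six2-Cre libraries, against 0.274, 0.139 and 0.216 FPKM in wild types 7 to 9. The groups overlapped in both comparisons, and Foxd1-Cre libraries 4 and 5 stood apart from the other 3. Mab21l2 lies inside Lrba on the opposite strand, with 34.3% of its 31-base stretches in Lrba transcripts. Lrba, which encodes a vesicle protein related to Nbea, fell by 0.57 on the log2 scale in Six2-Cre kidneys (7.17, 7.85 and 7.5 FPKM, against 12.4, 11.4 and 11.2 FPKM in wild types 7 to 9; limma, adjusted p = 0.00497) and changed by -0.02 ± 0.11 in Foxd1-Cre kidneys (adjusted p = 0.934). Against all 9 wild types its Six2-Cre change was 0.19 and did not pass (limma, adjusted p = 0.595). Lrba had 3.69 to 6.24 FPKM in wild types 1 to 6, below wild types 7 to 9. Mab21l3, a more distant relative, changed by -0.01 ± 0.08 in Foxd1-Cre and 0.06 ± 0.15 in Six2-Cre kidneys and passed in neither (limma, adjusted p = 0.962 and 0.826).

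**Figure D3:**
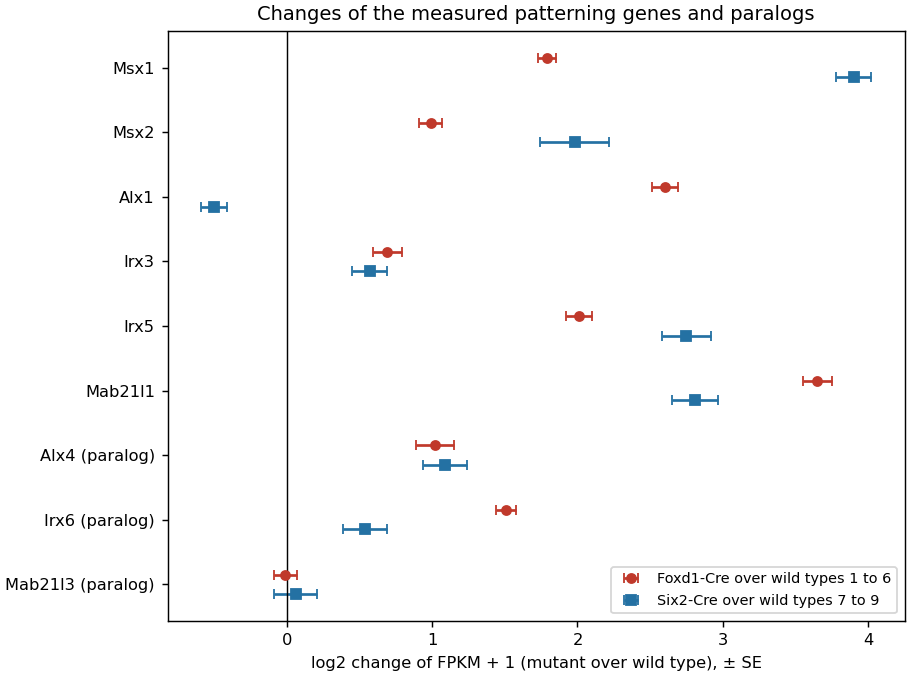
Change on the scale of log2(FPKM + 1), mutant over its own wild types, with limma's SE, for the 6 patterning genes that entered the fit and 3 paralogs outside the 9; circles are Foxd1-Cre and squares Six2-Cre. Msx1 lies at 1.79 and 3.90, Alx1 at 2.60 and -0.50, and Mab21l1 at 3.65 and 2.81 in Foxd1-Cre and Six2-Cre kidneys.

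**Figure D4:**
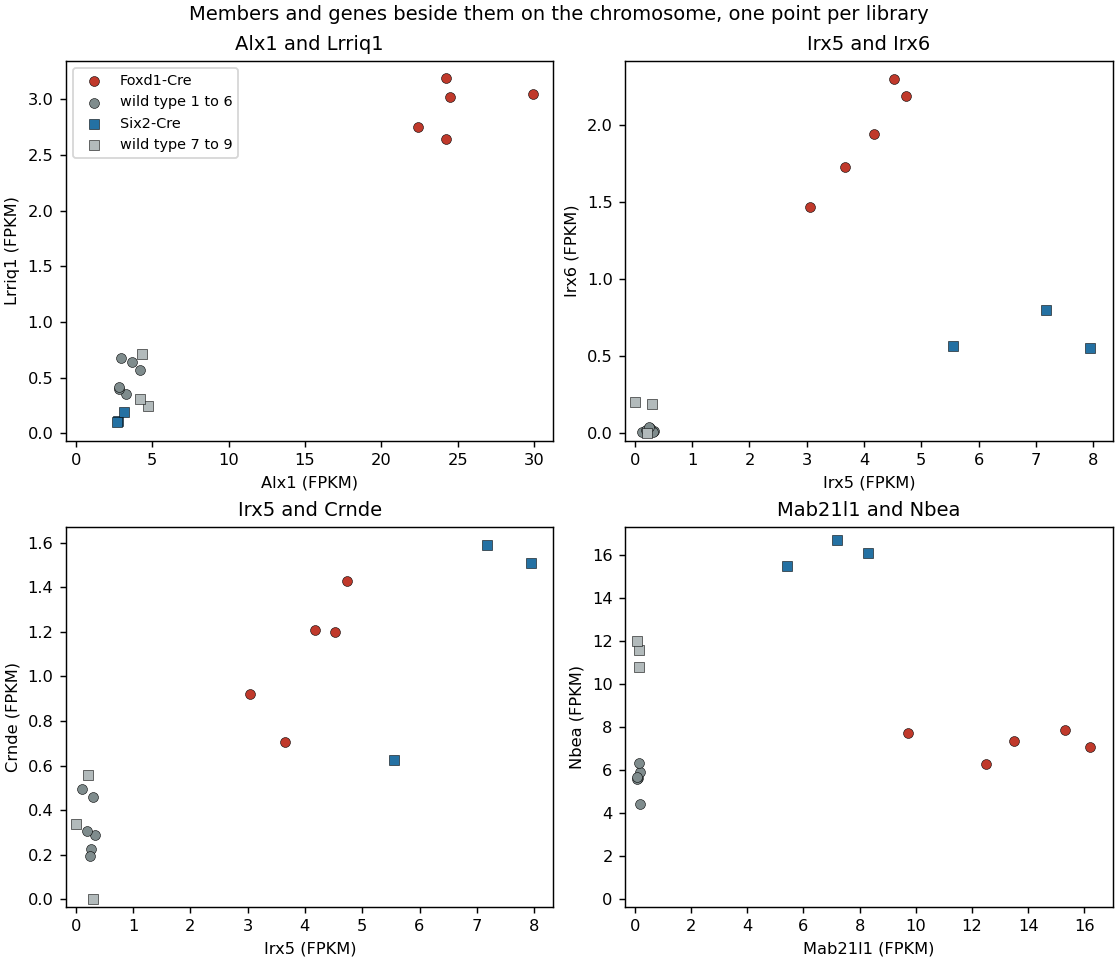
FPKM of a patterning gene (x axis) and of a gene beside it (y axis), 1 point per library, linear axes; circles are Foxd1-Cre and wild types 1 to 6, squares Six2-Cre and wild types 7 to 9. The Foxd1-Cre libraries sit alone at the high end for Alx1 with Lrriq1, and Irx6 reaches 1.47 to 2.3 FPKM in Foxd1-Cre but 0.553 to 0.797 FPKM in Six2-Cre libraries.

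For each of the 6 genes, the protein-coding genes with the most similar pattern were taken as those with the smallest root mean square difference in log2(FPKM + 1) from own wild types over all 17 libraries, among 12824 genes. Sp5, a transcription factor gene, was closest to both Msx1 (0.41) and Irx5 (0.20). For Msx1, Dbh and Pycr1 followed at 0.88 each. Irx5 was followed by Pycr1 (0.38) and Dlgap1 (0.47). Closest to Msx2 were Bmp4 (0.26), Sstr1 (0.27) and Lin7a (0.27), to Alx1 Kcng1 (0.30), Sdc2 (0.34) and Thy1 (0.35), to Irx3 Wnt4 (0.13), Mdga2 (0.15) and Pcsk5 (0.16), and to Mab21l1 Mybpc1 (0.36), Fzd10 (0.37) and Wif1 (0.40). Among the 6 genes themselves, Msx1 and Irx5 were the most alike (0.53) and Msx1 and Alx1 the least (1.91).

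Bmp4, a ligand known to induce Msx genes in limb and tooth, averaged 26.4 ± 1.96 FPKM in Foxd1-Cre kidneys and 14.2 ± 2.37 FPKM in wild types 1 to 6 (SD, n = 5 and 6), and 34.7 ± 2.38 FPKM in Six2-Cre kidneys and 9.78 ± 1.43 FPKM in wild types 7 to 9 (SD, n = 3 each). It rose by 0.85 ± 0.10 and by 1.74 ± 0.11 on the log2 scale (limma, adjusted p = 9.7e-05 and 8.0e-04), and the changes differed (adjusted p = 0.00112). With all 9 wild types as shared controls, the controls cancel and the mutants are compared directly across library sets of unlike depth. That comparison gave -0.39 for Bmp4 and did not pass (limma, adjusted p = 0.0646), but it is not the difference of the effects. Of the 26 tested members of the BMP list, 13 were up and 1 was down in Foxd1-Cre kidneys. In Six2-Cre kidneys 14 were up and 1 was down. The medians were 0.25 and 0.35 on the log2 scale, against -0.01 over all tested genes in each comparison. As a background for this list and those below, 8.45% of all tested genes passed upward and 4.82% downward with Foxd1-Cre. With Six2-Cre these shares were 7.93% upward and 5.84% downward. No list count was tested against these shares. The BMP inhibitor Grem1, which met the filter only because of mutant libraries, rose by 1.61 ± 0.12 in Foxd1-Cre kidneys (limma, adjusted p = 3.5e-06). Id1 and Id2, targets of BMP signalling, rose by 0.61 ± 0.05 and 0.57 ± 0.03 in Six2-Cre kidneys (limma, adjusted p = 0.00164 and 6.1e-04). Id1 did not pass with all 9 wild types as controls (0.31, adjusted p = 0.0719). In Foxd1-Cre kidneys Id1 changed by 0.04 ± 0.08 and did not pass, and Id2 rose by 0.21 ± 0.06 (limma, adjusted p = 0.804 and 0.0355). That Id2 rise did not pass with the replicate block (limma, adjusted p = 0.0588). It also did not pass without Foxd1-Cre library 2, 3 or 5 or without wild type 1, 3, 5 or 6 (limma, adjusted p = 0.0574 to 0.0948).

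Of 20 tested Wnt/beta-catenin targets, 16 rose and 1 fell in Foxd1-Cre kidneys and 10 rose and 3 fell in Six2-Cre kidneys, with medians of 1.15 and 0.73. Axin2, a feedback inhibitor of the pathway, averaged 68 ± 6.8 FPKM in Foxd1-Cre kidneys and 10.1 ± 0.571 FPKM in wild types 1 to 6 (SD, n = 5 and 6), a rise of 2.63 ± 0.06 (limma, adjusted p = 2.6e-10). Apcdd1, another inhibitor, rose by 4.89 ± 0.10 in Foxd1-Cre and by 2.86 ± 0.08 in Six2-Cre kidneys (limma, adjusted p = 1.4e-10 and 8.3e-05). Dkk1 went both ways, changing by -0.45 ± 0.10 in Foxd1-Cre and by 2.54 ± 0.07 in Six2-Cre kidneys (limma, adjusted p = 0.0133 and 8.3e-05).

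Of 22 tested factors of limb and craniofacial mesenchyme, 11 rose and 2 fell in Foxd1-Cre kidneys (median 0.34) and 8 rose and 4 fell in Six2-Cre kidneys (median 0.44). Prrx2, a homeobox gene of limb mesenchyme, rose by 1.58 ± 0.10 in Foxd1-Cre kidneys (limma, adjusted p = 6.7e-07), and the T-box genes Tbx2 and Tbx3 by 1.03 ± 0.06 and 1.15 ± 0.06 (adjusted p = 6.6e-07 and 2.5e-07). In Six2-Cre kidneys Twist1 rose by 1.00 ± 0.07 and Hand2 by 1.70 ± 0.21, while Osr2, a zinc finger factor, fell by 2.08 (limma, adjusted p = 0.0013, 0.00503 and 0.00369). Dlx1, Dlx2, Dlx4, Dlx6, Barx1, Barx2, Foxf1, Foxf2, Pax9 and Gsc, which are also on that list, stayed under 1 FPKM in every library.

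The nephron segmentation list, the kidney setting in which Irx genes are known, was mixed. Of its 25 tested genes, 5 were up and 9 down in Foxd1-Cre kidneys (median -0.26) and 5 rose and 7 fell in Six2-Cre kidneys (median -0.14). Wnt4, the signal that starts nephron formation and the gene most like Irx3, rose by 0.81 ± 0.08 and 0.72 ± 0.07 (limma, adjusted p = 3.2e-05 and 0.00203), and Cdh6 rose by 1.13 ± 0.10 in Foxd1-Cre kidneys (adjusted p = 9.2e-06). Among the genes that fell, Lhx1 changed by -1.05 ± 0.14 in Foxd1-Cre kidneys and Ccnd1 by -0.69 ± 0.05 in Six2-Cre kidneys (limma, adjusted p = 3.1e-04 and 0.0013). Kidney identity markers had 0 of 11 higher and 4 lower in Foxd1-Cre kidneys and 0 higher and 7 lower in Six2-Cre kidneys.

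Some markers of other tissues moved with these genes, and their part in the results was not tested. Of 6 tested limb bud and body wall markers, 3 rose in each mutant and 1 fell in Six2-Cre kidneys. Summed over all 15 they ran from 41.5 to 52.5 FPKM in Foxd1-Cre libraries, against 19.9 to 26 FPKM in wild types 1 to 6. In Six2-Cre libraries the sum ran from 53.2 to 57.6 FPKM, against 25.2 to 35.4 FPKM in wild types 7 to 9. Most of both differences was Prrx1. It averaged 34.4 FPKM in Foxd1-Cre kidneys, against 14.5 FPKM, and 46.1 FPKM in Six2-Cre kidneys, against 19 FPKM. Lmx1b, the 1 that fell in Six2-Cre kidneys, averaged 2.48 FPKM, against 6.23 FPKM. Tbx4, Tbx5, Myf5, Pax7, Pax3, Tbx15, Shox2 and En1, listed as markers of limb buds and body wall, were under 1 FPKM in every library. Of 10 tested cartilage and bone markers, 5 rose in Foxd1-Cre and 4 in Six2-Cre kidneys. Their sum was 85.8 to 96.5 FPKM in Foxd1-Cre libraries, against 43.7 to 69.2 FPKM in wild types 1 to 6, and 97 to 101 FPKM in Six2-Cre libraries, against 60.8 to 71.8 FPKM in wild types 7 to 9, while Acan, Ibsp, Bglap and Matn1 were under 1 FPKM throughout. Of 13 neural markers, 5 rose and 1 fell in Foxd1-Cre and 9 rose in Six2-Cre kidneys, and Elavl3 and Foxd3 were under 1 FPKM throughout. The neural sum was 40.7 to 64.7 FPKM in Foxd1-Cre libraries, against 26.8 to 31.4 FPKM in wild types 1 to 6. It was 54.8 to 76 FPKM in Six2-Cre libraries, against 21.2 to 31.6 FPKM in wild types 7 to 9. Most of the difference in Foxd1-Cre kidneys was Tubb3, which averaged 22.4 FPKM, against 1.93 FPKM in wild types 1 to 6. Stmn2, the 1 that fell there, averaged 4.83 FPKM, against 10.2 FPKM.

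Of 6 gonad, adrenal and genital duct markers, 2 rose in Foxd1-Cre and 1 in Six2-Cre kidneys, and Nr5a1, Cyp11a1, Cyp17a1, Lhx9, Amh, Dazl and Ddx4 were under 1 FPKM in every library. The sum of that list was 35.5 to 58.9 FPKM in Foxd1-Cre libraries, against 28.4 to 40.4 FPKM in wild types 1 to 6. It was 35.4 to 39 FPKM in Six2-Cre libraries, against 16.8 to 28.6 FPKM in wild types 7 to 9. Amhr2 alone averaged 14.2 FPKM in Foxd1-Cre kidneys, against 0.983 FPKM in wild types 1 to 6. All 12 endothelial markers rose in Six2-Cre kidneys and 4 in Foxd1-Cre kidneys, and of 8 erythroid markers 7 fell and 1 rose in Six2-Cre kidneys and 3 fell in Foxd1-Cre kidneys. Macrophage markers rose in 3 of 10 cases in Six2-Cre kidneys and in 0 of 10 in Foxd1-Cre kidneys, and of 19 ureteric bud markers 11 fell in Six2-Cre and 4 fell and 2 rose in Foxd1-Cre kidneys.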

How the data were processed

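RNA-seq of 17 libraries was given as 1 table of FPKM values per gene, which the authors deposited. Per the submitters' processing notes, bcl2fastq 2.17.1.14 and Salmon were used with GRCm38 (mm10); the gene summary, annotation release, scaling and strandedness are not given in the sources used here. Gene IDs were named from GENCODE M21: 24189 had a symbol, 243 had none, and 3300 IDs were at 0 in every library. Total FPKM was 857705 to 963729 in the Foxd1-Cre libraries and wild types 1 to 6 and 799273 to 834838 in the others, and 5312 to 5807 and 7590 to 7891 IDs were at 0. Read numbers quoted are estimates. In each library 1 read was taken as percentile 5 of the FPKM values above 0 times transcript length. This used 1928 genes with a single transcript of 1500 to 4000 bases. The numbers assume the longest transcript of a gene and cover counting error only.

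The filter on low values asked for 1 FPKM or more in 3 or more libraries, which left 14014 genes. Each mutant was compared with its own wild types on log2(FPKM + 1) by limma 3.58.1 (R 4.3.3), using a mean-variance trend and two-sided Benjamini-Hochberg adjustment over all 13996 or 13828 genes tested. The difference of the effects was tested over 13810 genes. Genes with an adjusted p below 0.05 passed.

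The 9 genes were chosen, and the lists and tests written, with earlier results of these data known. The genes named were the 9, their paralogs, tested neighbours within 100 kb, up to 3 genes per list and comparison with the smallest p-values, and 3 most similar genes for each of the 9 that entered the fit. Replicate numbers did not pair the libraries, since same-numbered libraries correlated at 0.022 to 0.099. Alternatives were 23 settings, including all 9 wild types, other scalings, pseudocount 0.1 and each library left out. Some genes of the families and lists are not reported here.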

Additional observations from a re-analysis of the deposited data

Results flagged for a closer look

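Alx1 was farthest from its group in Foxd1-Cre library 4, at 29.9 FPKM, where the gap to the next library was a large share of the group's range (0.728). Sptlc1, a gene near Msx2, was lowest in Foxd1-Cre library 5 at 18.4 FPKM and lowest in wild type 5 at 16.9 FPKM, each far from its group. Of 42 groups looked at, about 5% would be picked out by chance.

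Among the 9 tested paralogs and neighbouring genes, the effects of the mutants differed for 3, where 11% of all genes tested for a difference passed. The Foxd1-Cre change minus the Six2-Cre change was 0.97 for Irx6, 1.69 for Lrriq1 and 0.55 for Lrba on the log2 scale. Irx6 and Lrriq1 met the filter on low values only through Foxd1-Cre libraries, so the filter itself favoured their differences. For Alx1 the Foxd1-Cre change minus the Six2-Cre change was 3.10, since every Foxd1-Cre library was above its wild types and every Six2-Cre library below its own. That difference was not tested, because Alx1 was chosen from these contrasts.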

How the results depend on the processing

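Of the counts of calls, 121 stayed within 1.5 times and 9 did not. With all 9 wild types as controls, 1234 genes passed in Foxd1-Cre kidneys (1856 otherwise) and 6444 in Six2-Cre kidneys (1905 otherwise). For the difference 8505 passed (1519 otherwise), but there the shared controls cancel and the mutants are compared directly, across library sets of unlike depth. In Six2-Cre kidneys 5 of the tested paralogs and neighbours passed with all 9 wild types (3 otherwise). There Irx6 and Crnde passed as rises (0.63 and 0.75), Lrriq1 passed as a fall (-0.37), and Lrba no longer passed. Leaving out 1 library gave 907 to 1467 genes in Six2-Cre kidneys. With all 9 wild types, the Lrba change in Six2-Cre kidneys was 0.19, with the opposite sign. Lrba had 3.69 to 6.24 FPKM in wild types 1 to 6 and 11.2 to 12.4 FPKM in wild types 7 to 9. The direct comparison of the mutants gave -0.59 for Lrba and -0.06 for Cdh6, also with the opposite sign, but it is not the difference of the effects. The causes were not tested. With the replicate block, 1425 genes passed in Foxd1-Cre kidneys; no Foxd1-Cre library was most like its own number. The block could not be fitted for Six2-Cre, which shares no number with wild types 7 to 9.

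A pseudocount of 0.1 enlarged the changes of the 6 genes, to 5.16 for Msx1, 4.89 for Irx5 and 5.01 for Mab21l1 in Six2-Cre kidneys and to 5.85 for Mab21l1 in Foxd1-Cre kidneys, with no change of sign. Rescaling libraries moved the median change over all genes by under 0.1. Read numbers were lowest for Irx1, Irx2, Mab21l2 and the wild-type values of Irx5 and Mab21l1, most of all in Six2-Cre libraries and wild types 7 to 9, where small values are least precise. Msx1 and Msx2 also had few reads in wild types 7 to 9, down to about 4.68 and 5.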
